A study of Mus musculus with 18 samples.

Results

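The comparison described here sets heterozygous mutant mouse embryonic fibroblasts (MEFs) after 24 h in TGFb1 against the same cells after 4 h. It rests on 4 of the 18 arrays of the study, 2 for each time, which were chosen by their sample titles. The whole study covered 3 genotypes (wt, heterozygous, homozygous), each untreated or given TGFb1 at 5 ng/mL and harvested at 4 h or at 24 h, which makes 9 groups of 2 arrays. The heterozygous cells carried a single copy of a mutant that the submitters describe as constitutively active. The title of the series names TGFBR1 as the mutated gene while its design text speaks of a TGFb1 mutant, and the text here therefore says only the mutant. MEFs are a mixed primary culture, here made from E12.5 to E14.5 embryos without the head, liver and blood clots and grown in 10% serum. Heterozygous cells without TGFb (2 arrays, labelled only heterozygous, with no time given) are quoted beside many of the values as the untreated level. No untreated array carries a time of 4 h or 24 h, so time under TGFb and time in culture cannot be told apart. The labels do not state whether the 2 arrays of each group stem from different cultures or embryos. Every p-value therefore measures only the spread between arrays of a group. That spread, and with it every SE, is pooled over all 9 groups, wt and homozygous arrays included.

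TGFb1 binds a pair of receptor kinases, of which the type I receptor phosphorylates Smad proteins that move to the nucleus and switch target genes on or off. In fibroblasts the pathway is known for driving matrix production, contractile gene expression and growth arrest, and it induces its own inhibitors. Genes that respond within the first hours are often transcription factors and signalling feedback genes, while matrix and cell cycle genes usually respond later.

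The values are log2 GCRMA intensities of Affymetrix probe sets, so a difference of 1 is a 2-fold change. In the 18 arrays 39.55 to 40.4% of probe sets reached log2 5, the level under which a signal is called dim here. The arrays of a group correlated at 0.991 to 0.994 in the 3 heterozygous groups, with a root mean square SD of 0.183 to 0.222, and at 0.974 to 0.982 in the wt groups, with an SD of 0.321 to 0.387. All 10 fibroblast markers were measured, and 9 of them reached log2 5 on both 4 h arrays and 10 on both 24 h arrays. The exception was Pdgfra, a platelet-derived growth factor receptor of mesenchymal cells. It read 7.49 and 7.06 in untreated cells, 4.41 and 4.38 at 4 h, and 6.61 and 6.08 at 24 h. Pdgfra was therefore at least 2.54-fold higher at 24 h (limma, adjusted p = 0.000875). Of the 10 fibroblast markers 3 were called higher at 24 h and 1 lower (S100a4, by 1.57 on the log2 scale), with a median of 0.12. All 16 macrophage markers also reached log2 5 on all 6 heterozygous arrays. Their summed linear level was 21031 and 16062 untreated, 26155 and 19585 at 4 h, and 18834 and 13902 at 24 h. Both 24 h arrays thus lay below both 4 h arrays but overlapped the untreated ones. Of 7 erythroid markers 0 passed the filter on low values, of 8 endothelial markers 1 did (Emcn), and of 7 epithelial and 8 neural markers 4 each did. The summed level of the epithelial markers was 1869 and 1047 untreated, 3593 and 2545 at 4 h, and 2408 and 1217 at 24 h. That of the neural markers was 1093 and 1123 untreated, 2312 and 2475 at 4 h, and 1956 and 1969 at 24 h. Of either list 0 genes were called between 4 h and 24 h.

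At 24 h, 3242 of 10078 genes tested (32.2%) differed from 4 h (limma, Benjamini-Hochberg adjusted p under 0.05). Of these, 1502 were higher at 24 h (14.9% of genes tested) and 1740 lower (17.3%), and 300 rises and 377 falls exceeded 2-fold. Each list count for 24 h against 4 h in heterozygous cells given below is to be read beside these shares. The median over all genes was -0.03. In 3241 of the 3242 genes the 2 arrays of each time did not overlap, which also held for 7244 of all 10078 genes (71.9%). In 52 of the rises both 4 h arrays lay under log2 5, and in 56 of the falls both 24 h arrays did. Such changes are given as a lower bound on the fold. The count depended on the number of arrays: without 4 h array 1 it was 2096, without 4 h array 2 it was 2145, without 24 h array 1 it was 1863 and without 24 h array 2 it was 1955.

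Many of the largest fitted falls were of genes that stood high at 4 h and far lower in untreated cells. Sema7a, a membrane-anchored semaphorin that binds integrins, read 4.54 and 4.14 untreated, 10.24 and 10.32 at 4 h, and 6.40 and 5.86 at 24 h. It fell by 4.15 ± 0.45 on the log2 scale between 4 h and 24 h (SE; limma adjusted p = 6.01e-05), or 17.8-fold, and both 24 h arrays still lay above both untreated ones. Nppb, which encodes brain natriuretic peptide, read 5.40 and 5.20 untreated, 9.12 and 8.90 at 4 h, and 5.22 and 5.06 at 24 h. Its fall of 3.87 ± 0.39 (adjusted p = 4.24e-05) took the 24 h arrays to the untreated level or just under it. Serpinb2, a serpin that inhibits plasminogen activators, read 3.55 and 2.47 untreated, 7.86 and 8.02 at 4 h, and 2.81 and 4.64 at 24 h. Since both 24 h arrays were dim, Serpinb2 fell at least 7.66-fold (limma adjusted p = 0.000226). Prdm1, a transcriptional repressor, read 6.26 and 5.64 at 4 h and was dim in untreated cells and at 24 h, which makes its fall at least 1.93-fold. Hivep3, a zinc finger transcription factor, read 6.94 and 6.41 untreated, 9.05 and 9.42 at 4 h, and 5.66 and 5.91 at 24 h. Crct1 read 6.25 and 5.83, then 9.33 and 8.97, and then 5.59 and 5.92. Hivep3 and Crct1 fell by 3.45 ± 0.38 and 3.40 ± 0.33 (limma adjusted p = 7.31e-05 and 3.71e-05), and for neither did both 24 h arrays exceed both untreated ones.

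Other large falls were of genes that untreated cells also expressed measurably, and their 24 h arrays lay below both other groups. Ccn3, a matricellular protein of the CCN family, read 9.37 and 8.57 untreated, 8.90 and 8.12 at 4 h, and 5.32 and 4.34 at 24 h. Its fall was 3.68 ± 0.58 (limma adjusted p = 0.00067), with an uncertain size since 1 of the 24 h arrays was dim. Lmcd1, which encodes a LIM domain transcriptional cofactor, read 6.77 and 6.98 untreated, 7.82 and 8.2 at 4 h, and 3.22 and 4.4 at 24 h, a fall of at least 8.07-fold (adjusted p = 0.0016). Rtl3, a gene derived from a retrotransposon, read 8.15 and 9.68 untreated, 6.42 and 8.37 at 4 h, and 2.17 and 5.20 at 24 h. The arrays of a time differed widely for Rtl3, yet its fall of 3.71 ± 0.80 passed (limma adjusted p = 0.00411), and it no longer did in a fit of the 4 arrays alone (adjusted p = 0.0512). The size of the Rtl3 fall is uncertain too, since 1 of the 24 h arrays was dim. Ecrg4 read 6.26 and 5.90 untreated, 6.88 and 6.50 at 4 h, and 3.06 and 3.08 at 24 h. Ecrg4 was at least 3.22-fold lower at 24 h (limma adjusted p = 0.0163), a call that each of the 4 fits with 1 array left out ended (adjusted p 0.0565 to 0.082).

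**Figure D1:**
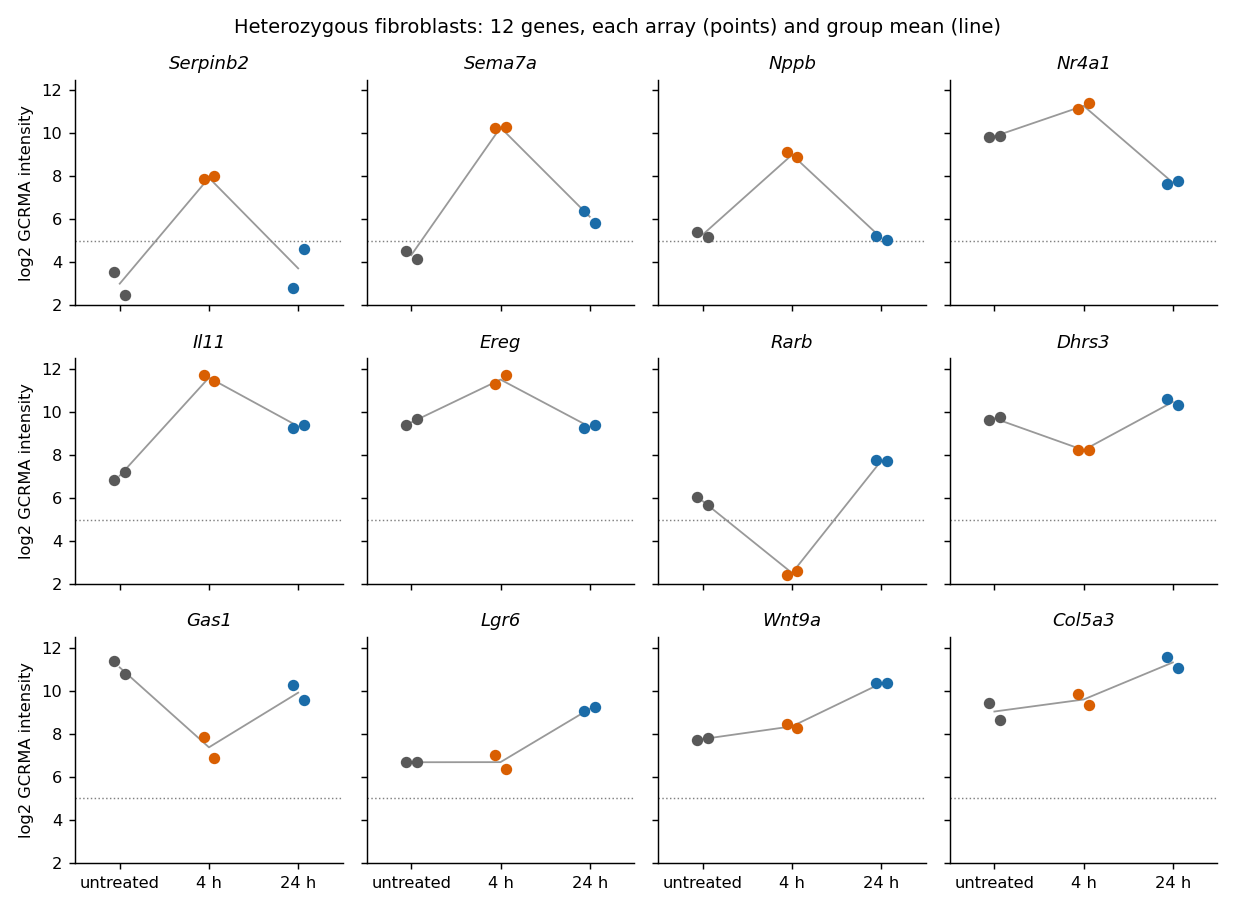
Log2 GCRMA intensity of 12 genes on each heterozygous array (points) in untreated cells and after 4 h and 24 h of TGFb, with the group mean as a line and log2 5, the dim limit, dotted. Sema7a, Nppb and Il11 peak at 4 h, Rarb, Dhrs3 and Gas1 are lowest at 4 h, and Lgr6, Wnt9a and Col5a3 are highest at 24 h.

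The largest fitted rise was of Rarb, the gene of retinoic acid receptor beta. This receptor binds retinoic acid response elements in DNA as a partner of retinoid X receptors, and Rarb is itself a textbook retinoic acid target through such an element in its promoter. Rarb read 6.04 and 5.68 in untreated cells, 2.42 and 2.62 at 4 h, and 7.77 and 7.72 at 24 h. The signal was thus dim at 4 h, and both 24 h arrays lay above both untreated arrays. Rarb was at least 6.71-fold higher at 24 h than at 4 h (limma adjusted p = 3.5e-07) and at least 1.81-fold lower at 4 h than in untreated cells. The 24 h level exceeded the untreated one by 1.89 on the log2 scale (limma adjusted p = 0.000584). Because Rarb leads the rises and is known for such an element, the 250 bases before its annotated start are shown, on the minus strand at chr14:16575477-16575726 of GRCm38.p6 (RefSeq). Capitals mark a DR5 element, here a pair of 6-base half-sites spaced by 5 bases, at -53 to -37 from the start.
Rarb: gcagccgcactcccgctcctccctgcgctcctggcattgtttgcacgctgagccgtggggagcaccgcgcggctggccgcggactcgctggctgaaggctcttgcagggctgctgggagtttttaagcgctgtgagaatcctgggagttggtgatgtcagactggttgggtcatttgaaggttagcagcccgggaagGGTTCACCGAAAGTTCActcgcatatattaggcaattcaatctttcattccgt
Such a DR5 element, searched on both strands, was found in 29 of 32851 promoter entries of this length (0.0883%). Of 14 genes of the retinoid list with an entry, 2 held it, Rarb and Cyp26a1, of which Cyp26a1 was not among the genes tested. A match is a stretch of letters and says nothing about binding in these cells.

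Gas1 and Lgr6 stood for the other 2 shapes among the largest rises. Gas1, a membrane protein of growth arrest and a co-receptor of hedgehog ligands, read 11.41 and 10.78 untreated, 7.87 and 6.88 at 4 h, and 10.28 and 9.56 at 24 h. It rose by 2.54 ± 0.34 (limma adjusted p = 0.000224), yet both 24 h arrays stayed below both untreated arrays. Lgr6, a receptor for R-spondins, read 6.69 and 6.68 untreated, 7.0 and 6.38 at 4 h, and 9.06 and 9.27 at 24 h, a rise of 2.48 ± 0.28 (adjusted p = 7.95e-05). For Lgr6 the 4 h arrays enclosed the untreated ones, and only the 24 h arrays stood apart. Palmd read 7.95 and 8.97 untreated, 5.31 and 6.61 at 4 h, and 8.27 and 8.71 at 24 h, and Dbp, a clock-controlled transcription factor, read 7.47 and 7.71, then 5.21 and 5.32, and then 7.47 and 8.33. Palmd and Dbp rose by 2.53 ± 0.39 and 2.63 ± 0.41 (limma adjusted p = 0.00058 and 0.000633), back to the untreated level or above it.

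The remaining large rises began from a dim level at 4 h. Cnr1, the cannabinoid receptor gene, read 3.44 and 3.41 at 4 h and 7.09 and 6.99 at 24 h, at least 4.11-fold higher (limma adjusted p = 4.43e-06), and was dim in untreated cells too. Arg1, which encodes arginase, read 4.04 and 3.12 at 4 h and 7.24 and 5.84 at 24 h (at least 2.91-fold, adjusted p = 0.00306). Abcb1a, a drug efflux transporter, read 4.16 and 3.34 at 4 h and 6.94 and 6.37 at 24 h (at least 3.14-fold, adjusted p = 0.000261). Both genes were also dim on both untreated arrays, so for Cnr1, Arg1 and Abcb1a only the 24 h arrays gave a measurable signal. Etfbkmt, a protein methyltransferase of mitochondria, read 5.35 and 5.22 untreated, 3.77 and 4.48 at 4 h, and 7.07 and 6.81 at 24 h. Zc3h6 read 6.43 and 6.63, then 4.34 and 4.84, and then 6.94 and 7.19, so that Etfbkmt and Zc3h6 were at least 3.83-fold and 4.18-fold higher at 24 h. Dleu7 (at least 1.37-fold) and a gene known only by a clone name complete the 12.

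Immediate early and AP-1 transcription factor genes gave the most one-sided list. Of 26 measured, 24 fell between 4 h and 24 h and 0 rose, with a median of -1.22 against -0.03 over all genes tested. Their background was 17.3% of all genes lower. Fosb, an AP-1 subunit, read 4.74 and 5.70 at 4 h, and Arc, a cytoskeletal protein encoded by an early response gene, 4.33 and 6.84. Both were dim in untreated cells and at 24 h, so they fell at least 1.16-fold and 1.5-fold (limma adjusted p = 0.000377 and 0.00217), with 1 of the 4 h arrays dim for each. Nr4a1, an orphan nuclear receptor, read 9.85 and 9.88 untreated, 11.15 and 11.42 at 4 h, and 7.63 and 7.79 at 24 h. It fell by 3.57 ± 0.19 (limma adjusted p = 5.44e-07), to below both untreated arrays. Egr3, a zinc finger factor, read 7.56 and 7.40 untreated, 8.68 and 8.58 at 4 h, and 6.52 and 5.08 at 24 h, a fall of 2.83 ± 0.47 (adjusted p = 0.000879). The members that did not pass were Jun (-0.33 ± 0.12, limma adjusted p = 0.0533) and Jund (0.20 ± 0.12, adjusted p = 0.23). Between 19 and 24 members were called lower when any 1 of the 4 arrays was left out.

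**Figure D2:**
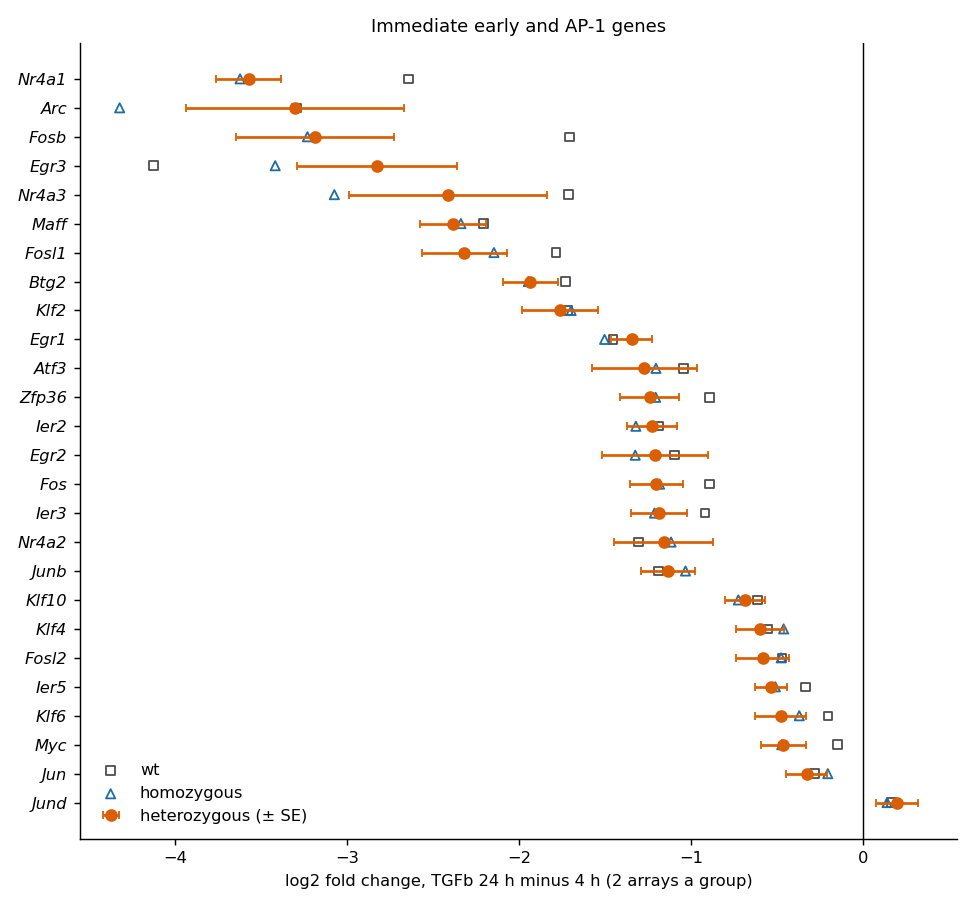
Log2 fold change from 4 h to 24 h of TGFb for 26 immediate early and AP-1 genes, in heterozygous cells (filled, with the SE of the fit), wt cells (squares) and homozygous cells (triangles), from 2 arrays a group. All but Jund lie below 0 in heterozygous cells, from -3.57 for Nr4a1 to -0.33 for Jun, with Fosb and Arc, dim at 24 h, at fitted values.

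Promoters of this list were searched because its members moved together, for the CArG box bound by serum response factor and the CRE (TGACGTCA) bound by the CREB and ATF family. Srf itself, listed with the contractile genes, read 9.09 and 8.91 untreated, 10.26 and 10.48 at 4 h, and 9.03 and 9.03 at 24 h, and fell by 1.34 ± 0.13 (limma adjusted p = 4.23e-05). Of 19 members with a promoter entry, 2 held a CArG box (Egr2 and Zfp36) and 2 a CRE (Btg2 and Maff) on either strand. Over all 32851 entries, 1.47% held the CArG box and 1.55% the CRE, and per gene with any entry the shares were 1.62% and 1.77%. An entry for Egr2 (plus strand, chr10:67537316-67537565) and that for Btg2, an anti-proliferative early gene (minus strand, chr1:134079156-134079405, both GRCm38.p6), are shown with the CArG box and the CRE in capitals.
Egr2: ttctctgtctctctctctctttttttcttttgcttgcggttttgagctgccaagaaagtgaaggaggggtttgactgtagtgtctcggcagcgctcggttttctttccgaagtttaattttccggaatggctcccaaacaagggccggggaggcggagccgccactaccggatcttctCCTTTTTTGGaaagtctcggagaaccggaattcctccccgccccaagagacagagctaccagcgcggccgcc
Btg2: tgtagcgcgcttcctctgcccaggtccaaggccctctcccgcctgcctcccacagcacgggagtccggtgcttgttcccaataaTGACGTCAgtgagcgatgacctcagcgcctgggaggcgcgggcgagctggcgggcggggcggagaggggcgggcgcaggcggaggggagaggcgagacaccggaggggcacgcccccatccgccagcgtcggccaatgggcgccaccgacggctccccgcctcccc
The capitals stand at -72 to -63 in Egr2 and at -166 to -159 in Btg2. Egr2 and Btg2 differed between 24 h and 4 h by -1.21 and -1.94 on the log2 scale, and both passed.

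Feedback genes of MAP kinase signalling followed in part. Of 15 phosphatase and Sprouty genes, 7 fell and 1 rose, with a median of -0.51. Dusp10, a phosphatase of stress-activated kinases, read 6.78 and 6.57 untreated, 8.16 and 8.87 at 4 h, and 6.18 and 6.19 at 24 h, and fell by 2.33 ± 0.24 (limma adjusted p = 5.41e-05). Dusp5, a nuclear ERK phosphatase, read 9.94 and 10.09, then 11.63 and 12.02, and then 10.09 and 10.10, a fall of 1.73 ± 0.12 (adjusted p = 3.44e-06) to the untreated range. The gene that rose was Spry1, a receptor tyrosine kinase inhibitor, at 9.66 and 9.88 untreated, 8.11 and 8.13 at 4 h, and 9.19 and 9.07 at 24 h. Its rise of 1.01 ± 0.17 (limma adjusted p = 0.0011) left both 24 h arrays below both untreated ones.

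Secreted growth factors and cytokines were mostly lower at 24 h. Of 26 measured, 14 fell and 2 rose, with a median of -1.06, beside 17.3% lower and 14.9% higher over all genes tested. Il11, a cytokine of the interleukin-6 family that TGFb induces in fibroblasts, read 6.86 and 7.24 untreated, 11.75 and 11.47 at 4 h, and 9.28 and 9.40 at 24 h. It fell by 2.27 ± 0.28 (limma adjusted p = 0.000135), and both 24 h arrays stayed above both untreated ones. Ereg, an EGF receptor ligand, read 9.39 and 9.66, then 11.30 and 11.74, and then 9.25 and 9.39, a fall of 2.20 ± 0.19 (adjusted p = 1.8e-05) to the untreated level or just under it. Fgf18 read 7.03 and 6.58 at 4 h and was dim in untreated cells and at 24 h, so it fell at least 3.49-fold (limma adjusted p = 0.000162). Fgf7, a ligand for epithelial FGF receptors, read 11.26 and 11.30 untreated, 11.01 and 11.41 at 4 h, and 9.09 and 9.60 at 24 h. Its fall of 1.86 ± 0.18 (adjusted p = 3.71e-05) left it below the untreated arrays, unlike that of Il11. Fgf21, a secreted metabolic hormone, was dim in untreated cells, read 6.73 and 5.32 at 4 h and 8.27 and 7.47 at 24 h, and rose by 1.85 ± 0.40 (adjusted p = 0.0045; 0.0543 without 24 h array 1, which left 1 rise). Vegfa, the endothelial growth factor, read 9.85 and 9.65 untreated, 12.17 and 12.36 at 4 h, and 11.33 and 11.18 at 24 h, and fell by 1.02 ± 0.13 (limma adjusted p = 0.000192). The other gene that rose was Vegfc, a lymphatic growth factor, by 1.09, named here after its value was seen.

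**Figure D3:**
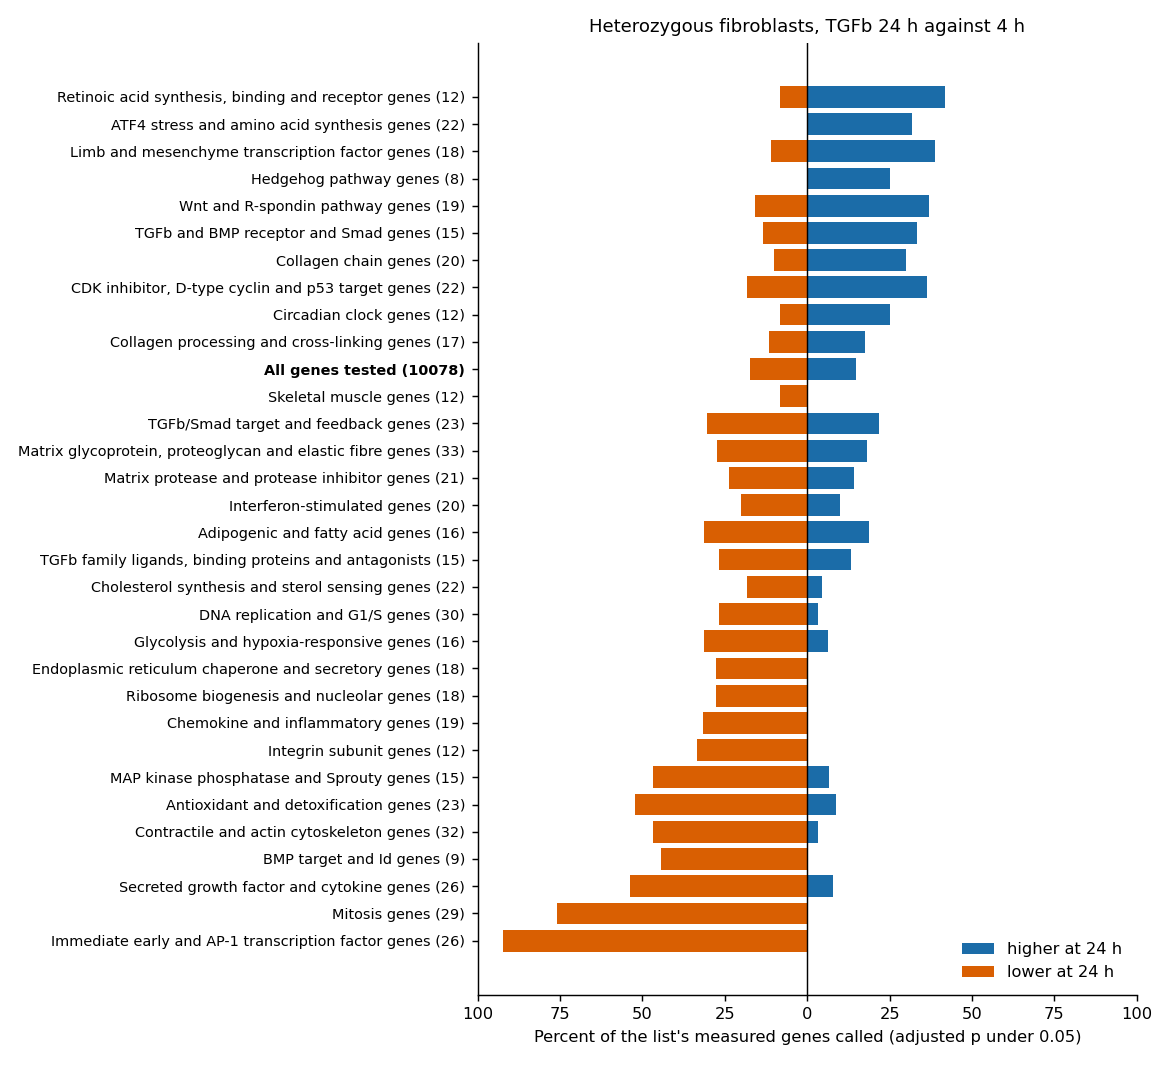
Share of each list's measured genes called higher (right) or lower (left) at 24 h than at 4 h in heterozygous cells, with the number measured in brackets and all 10078 genes tested in bold for comparison. Immediate early genes and mitosis genes reach furthest to the left, with 24 of 26 and 22 of 29 called lower, and the retinoid list furthest to the right by balance, with 5 of 12 higher and 1 lower.

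Ligands and antagonists of the TGFb family moved both ways. Of 15 measured, 2 rose and 4 fell, with a median of -0.01, beside 14.9% higher and 17.3% lower over all genes tested. Tgfb1 itself read 10.18 and 10.21 untreated, 11.61 and 11.56 at 4 h, and 11.52 and 11.34 at 24 h, and its difference between the times of -0.16 ± 0.10 did not pass (limma adjusted p = 0.263). Both TGFb times lay more than 1 log2 unit above the untreated cells (1.39 at 4 h and 1.23 at 24 h, adjusted p = 3.54e-06 and 1.77e-05). Inhba, which encodes the activin A subunit, read 12.26 and 12.42 untreated, 14.03 and 14.19 at 4 h, and 13.03 and 13.17 at 24 h, and fell by 1.01 ± 0.10 (limma adjusted p = 4.01e-05). Its 24 h arrays remained above the untreated ones. Fst, the activin antagonist follistatin, read 12.07 and 12.58 untreated, 12.22 and 12.81 at 4 h, and 11.01 and 11.55 at 24 h, a fall of 1.23 ± 0.22 (adjusted p = 0.00131). Nbl1, a secreted BMP antagonist, fell by 0.75 ± 0.18 (adjusted p = 0.00788). Ltbp2, a protein of the latent TGFb binding protein family, rose by 0.76 ± 0.26 (limma adjusted p = 0.0404), a call that every fit with 1 of the 4 arrays left out ended (adjusted p 0.0659 to 0.219). The list had 0 rises in each of those fits.

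Among receptors and Smads 5 of 15 rose and 2 fell, with a median of 0.23 (all genes tested: 14.9% higher, 17.3% lower). Tgfbr2, the type II receptor, read 11.82 and 11.77 untreated, 11.26 and 11.16 at 4 h, and 12.14 and 11.66 at 24 h, and rose by 0.69 ± 0.14 (limma adjusted p = 0.00349). Tgfbr3, the co-receptor betaglycan, read 7.69 and 7.92, then 5.81 and 6.83, and then 4.21 and 5.37, and fell by 1.53 ± 0.44 (adjusted p = 0.0179), with 1 of the 24 h arrays dim. The call for Tgfbr3 was lost without 4 h array 2 or 24 h array 1 (adjusted p = 0.162 and 0.183). Tgfbr1, the type I receptor, read 10.54 and 10.53 untreated, 10.91 and 10.94 at 4 h, and 10.62 and 10.51 at 24 h on its brightest probe set, a fall of 0.36 ± 0.10 (limma adjusted p = 0.0148). Its other 2 probe sets differed by 0.49 and 0.23 the opposite way, and the mean of the probe sets by 0.120, so Tgfbr1 has no settled direction. The call was also lost without 4 h array 1, 4 h array 2 or 24 h array 2 (adjusted p = 0.0537, 0.067 and 0.105). The count of 5 dropped to 1 without 4 h array 1, 24 h array 1 or 24 h array 2, and to 2 without 4 h array 2. It was also 1 with no filter on low values or in a fit of the 4 arrays alone.

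Of 23 TGFb/Smad target and feedback genes 5 rose and 7 fell, beside 14.9% higher and 17.3% lower over all genes tested. Their median was -0.10, so the list as a whole had no common direction. Wnt9a, a Wnt ligand, read 7.71 and 7.82 untreated, 8.45 and 8.26 at 4 h, and 10.36 and 10.36 at 24 h, and rose by 2.00 ± 0.13 (limma adjusted p = 1.58e-06). Skil, which encodes the Smad repressor SnoN, read 12.22 and 12.12, then 12.05 and 12.10, and then 12.71 and 12.81, a rise of 0.69 ± 0.09 (adjusted p = 0.000214) that the mean of its probe sets did not keep past the threshold (adjusted p = 0.0586). Both genes were highest at 24 h. Snai1, a repressor of epithelial genes, read 8.01 and 8.06 untreated, 9.67 and 9.60 at 4 h, and 7.66 and 8.15 at 24 h, and fell by 1.73 ± 0.32 (limma adjusted p = 0.00164) to about the untreated level. Junb read 9.15 and 9.15, then 10.83 and 10.77, and then 9.60 and 9.74, a fall of 1.13 ± 0.16 (adjusted p = 0.000281). The inhibitory Smad gene Smad7 read 10.98 and 10.96 untreated, 11.45 and 11.24 at 4 h, and 11.29 and 11.35 at 24 h, a difference of -0.02 ± 0.21 that did not pass (adjusted p = 0.951) and whose sign turned with the scaling. Ccn2, connective tissue growth factor, lay between 15.67 and 15.78 on all 6 arrays, and differed by 0.00 ± 0.07 (adjusted p = 0.987). The highest value on any heterozygous array was 16.24, and whether so bright a signal as that of Ccn2 can still change was not tested. The count of rises was 3 without 4 h array 2, without 24 h array 1 or with the mean of probe sets, and that of falls 4 without 4 h array 1.

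BMP target and Id genes, which encode inhibitors of basic helix-loop-helix factors, fell in 4 of 9 cases and rose in 0 (median -0.60). Id1 read 11.59 and 11.31 untreated, 12.21 and 12.35 at 4 h, and 10.20 and 10.82 at 24 h, a fall of 1.77 ± 0.34 (limma adjusted p = 0.00234). Id4 read 9.36 and 9.23, then 8.19 and 8.68, and then 6.65 and 7.59, and fell by 1.32 ± 0.37 (adjusted p = 0.0158; 0.11 without 4 h array 2 and 0.161 without 24 h array 1). Id1 was therefore highest at 4 h and Id4 in untreated cells. Id3 (-0.79 ± 0.29, limma adjusted p = 0.0497) sat at the threshold. It was not called under other scalings (limma adjusted p 0.0576 and 0.0595), with no filter on low values (0.101) or with the mean of probe sets (0.0508). The change of Id3 was -0.458 without 24 h array 1, and -0.789 and -0.797 without 4 h array 1 or 2. The 4 falls became 2 without either 4 h array and 1 without 24 h array 1.

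Collagen chains tended to be higher at 24 h, with 6 of 20 rising, 2 falling and a median of 0.34 (all genes tested: 14.9% higher, 17.3% lower). Col5a3, a chain of fibril-regulating collagen V, read 9.44 and 8.65 untreated, 9.86 and 9.35 at 4 h, and 11.57 and 11.09 at 24 h, and rose by 1.72 ± 0.31 (limma adjusted p = 0.0016). Col7a1, the anchoring fibril collagen, read 9.61 and 8.76, then 9.86 and 9.25, and then 10.97 and 10.49 (1.18 ± 0.29, adjusted p = 0.00852; 0.0842 without 4 h array 2 and 0.0818 without 24 h array 1). Both were highest at 24 h, with no overlap with the other groups. Col11a1, a minor fibrillar chain, read 12.09 and 12.54 untreated, 11.43 and 11.53 at 4 h, and 12.69 and 12.74 at 24 h, a rise of 1.23 ± 0.26 (limma adjusted p = 0.00351). Col1a1, the main chain of collagen I, read 15.49 and 15.39, then 15.03 and 15.09, and then 15.55 and 15.47, a rise of 0.45 ± 0.11 (adjusted p = 0.0076) that regained the untreated level and was lost with the mean of its probe sets (adjusted p = 0.0897) and without 24 h array 1 (0.0563). Col6a2, a chain of microfibrillar collagen VI, read 11.40 and 10.66 untreated, 11.13 and 10.80 at 4 h, and 9.99 and 9.24 at 24 h, and fell by 1.35 ± 0.25 (adjusted p = 0.00191), and Col6a1, named after its value was seen, fell by 0.98. The count of rises was 3 without 4 h array 2 and 2 without 24 h array 1.

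Of 17 collagen processing genes 3 rose and 2 fell, near the 14.9% higher and 17.3% lower over all genes tested. Plod2, the lysyl hydroxylase of collagen telopeptides, read 12.56 and 12.78 untreated, 12.08 and 12.37 at 4 h, and 13.24 and 13.28 at 24 h, and rose by 1.03 ± 0.15 (limma adjusted p = 0.000463). Loxl4, a lysyl oxidase, rose by 0.71 ± 0.14 (adjusted p = 0.00219). The 2 falls became 0 without 4 h array 2 or either 24 h array. Of 33 matrix glycoprotein, proteoglycan and elastic fibre genes 6 rose and 9 fell, around a median of 0.00. Vcan, the proteoglycan versican, read 11.27 and 11.39, then 10.73 and 11.06, and then 12.05 and 11.95, a rise of 1.1 ± 0.12 (limma adjusted p = 6.02e-05). Efemp1, a fibulin, read 11.99 and 12.33, then 11.64 and 11.93, and then 10.40 and 10.06, a fall of 1.55 ± 0.28 (adjusted p = 0.00158). Tgfbi, a matrix protein named for its induction by TGFb, read 11.45 and 10.55 untreated, 11.39 and 10.54 at 4 h, and 10.25 and 9.45 at 24 h, and fell by 1.12 ± 0.35 (adjusted p = 0.0278). For Tgfbi array 1 of each group was the higher one, and the call was lost without 4 h array 1 or 24 h array 2 (adjusted p = 0.232 and 0.231).

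Among 21 proteases and their inhibitors there were 3 rises and 5 falls, near the 14.9% higher and 17.3% lower over all genes tested. Plaur, the urokinase receptor, read 10.50 and 10.61 untreated, 12.28 and 12.55 at 4 h, and 10.72 and 10.75 at 24 h, and fell by 1.68 ± 0.19 (limma adjusted p = 9.89e-05). Timp3, a matrix-bound metalloproteinase inhibitor, read 12.10 and 11.56, then 13.38 and 13.35, and then 12.49 and 12.03, a fall of 1.1 ± 0.20 (adjusted p = 0.00171). Adamts4, an aggrecan-cleaving protease, read 8.68 and 8.11, then 8.79 and 8.01, and then 10.43 and 9.75, and rose by 1.69 ± 0.31 (limma adjusted p = 0.00182; adjusted p = 0.112 with the mean of its probe sets). Plaur and Timp3 were thus highest at 4 h and Adamts4 at 24 h. The counts became 5 rises and 3 falls without 24 h array 2.

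Integrin subunits fell in 4 of 12 cases and rose in 0 (median -0.37), beside 17.3% lower and 14.9% higher over all genes tested. Itga8 read 8.69 and 8.83 untreated, 8.66 and 8.66 at 4 h, and 5.91 and 6.39 at 24 h, and fell by 2.51 ± 0.42 (limma adjusted p = 0.00101). Itga5, the fibronectin receptor subunit, read 10.77 and 10.63, then 12.49 and 12.68, and then 11.68 and 11.44, and fell by 1.02 ± 0.14 (adjusted p = 0.000281) without reaching the untreated level. Itgb3 (-0.88 ± 0.25, adjusted p = 0.0181) had a further probe set at 0.51 in the opposite direction and was not called with the mean of both (adjusted p = 0.506). The 4 falls became 2 without 4 h array 2 or 24 h array 1, and 2 with the mean of probe sets.

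Of 32 contractile and actin cytoskeleton genes, 15 fell and 1 rose, with a median of -0.25 (all genes tested: 17.3% lower, 14.9% higher). Smtn, a smooth muscle cytoskeletal protein, read 9.07 and 9.33 untreated, 10.32 and 10.45 at 4 h, and 9.30 and 9.28 at 24 h, and fell by 1.1 ± 0.15 (limma adjusted p = 0.000225). Fhl1, a LIM domain protein, read 13.33 and 13.18, then 13.70 and 13.72, and then 12.52 and 12.51, a fall of 1.20 ± 0.17 (adjusted p = 0.000303). Mylk, the myosin light chain kinase, read 10.56 and 9.73, then 10.03 and 9.62, and then 8.74 and 8.26 (-1.32 ± 0.44, limma adjusted p = 0.0359), and lost its call in each of the 4 fits with 1 array left out (adjusted p 0.0673 to 0.188). Acta2, smooth muscle actin, lay between 15.29 and 15.49 on all 6 arrays (difference -0.06 ± 0.08, limma adjusted p = 0.572), and its dimmer probe set differed by -0.855. Whether a signal as bright as that of Acta2 can still change was not tested. The count of 15 falls became 9 without 4 h array 2, 9 without 24 h array 1 and 8 without 24 h array 2.

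Genes of mitosis were lower at 24 h. Of 29 measured 22 fell and 0 rose, with a median of -0.70, and 17 to 19 were called lower when 1 of the 4 arrays was left out. Birc5, the chromosomal passenger survivin, read 11.50 and 11.50 untreated, 11.80 and 11.61 at 4 h, and 10.29 and 10.55 at 24 h, and fell by 1.28 ± 0.17 (limma adjusted p = 0.000227). Ube2c, a ubiquitin-conjugating enzyme of the anaphase-promoting complex, read 11.72 and 11.74, then 12.16 and 12.09, and then 10.87 and 10.98, a fall of 1.20 ± 0.16 (adjusted p = 0.000225). Aurka, a spindle pole kinase, read 9.87 and 9.77, then 10.21 and 10.22, and then 8.97 and 9.21 (-1.12 ± 0.16, limma adjusted p = 0.000387), and Cenpa, the centromeric histone, fell by 1.15 ± 0.18 (adjusted p = 0.00067). For these 4 genes the 24 h arrays lay below the untreated arrays as well as below the 4 h arrays. Against untreated cells, 0 mitosis genes were higher and 3 lower at 4 h, and 29 were lower at 24 h. Over all 10078 genes tested, 1578 were higher and 1326 lower than untreated at 4 h, and 415 were lower at 24 h. The 3 mitosis genes lower at 4 h thus did not exceed the share over all genes. Mki67, the proliferation marker, stood apart from the rest at 11.34 and 11.21 untreated, 10.39 and 10.46 at 4 h, and 10.38 and 10.55 at 24 h, with a difference between the times of 0.04 ± 0.18 (limma adjusted p = 0.876), and is named after its values were seen.

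DNA replication and G1/S genes moved less, with 8 of 30 falling, 1 rising and a median of -0.26 (all genes tested: 17.3% lower, 14.9% higher). Gins2, a subunit of the replicative helicase, read 8.76 and 8.63 untreated, 9.45 and 9.36 at 4 h, and 7.91 and 8.09 at 24 h, and fell by 1.40 ± 0.19 (limma adjusted p = 0.000257). The count of 8 falls was 4 without 4 h array 1, 2 without 4 h array 2, 1 without 24 h array 1 and 4 without 24 h array 2. Of 22 CDK inhibitor, D-type cyclin and p53 target genes 8 rose and 4 fell. Trp53inp1, a p53-induced nuclear protein, read 12.03 and 11.98 untreated, 10.57 and 10.90 at 4 h, and 11.99 and 12.04 at 24 h, and rose by 1.28 ± 0.12 (limma adjusted p = 3.71e-05) to the untreated level. Gadd45a, a growth arrest and DNA damage gene, read 10.30 and 9.77, then 10.10 and 9.31, and then 11.23 and 10.82, a rise of 1.32 ± 0.25 (adjusted p = 0.0019). Sesn1, a stress-induced sestrin, rose by 1.33 ± 0.21 (adjusted p = 0.000611). Sesn2 rose by 1.47 ± 0.32 (limma adjusted p = 0.00423) on its brightest probe set, and its other probe set differed by -0.27. The 4 falls of this list became 2 without 4 h array 2 and 1 without 24 h array 1.

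Promoters of mitosis genes are known for CCAAT boxes and a cell cycle homology region (CHR, TTTGAA), and both were searched on either strand because the list moved together. Of 25 mitosis genes with a promoter entry 21 held CCAAT (84%) and 9 held TTTGAA (36%), against 37.5% and 18.3% of all genes with an entry and 33.8% and 16% of all entries. Both were held by 8 of the 25 genes. Those of Ube2c (plus strand, chr2:164769679-164769928) and of Ccnb2, a mitotic cyclin (minus strand, chr9:70421555-70421804, both GRCm38.p6), are shown with the matches of both motifs in capitals.
Ube2c: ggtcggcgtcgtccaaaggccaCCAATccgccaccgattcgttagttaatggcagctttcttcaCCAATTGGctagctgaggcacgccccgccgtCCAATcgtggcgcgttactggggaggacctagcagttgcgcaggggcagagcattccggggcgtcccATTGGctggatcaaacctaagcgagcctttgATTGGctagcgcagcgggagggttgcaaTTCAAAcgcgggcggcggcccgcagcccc
Ccnb2: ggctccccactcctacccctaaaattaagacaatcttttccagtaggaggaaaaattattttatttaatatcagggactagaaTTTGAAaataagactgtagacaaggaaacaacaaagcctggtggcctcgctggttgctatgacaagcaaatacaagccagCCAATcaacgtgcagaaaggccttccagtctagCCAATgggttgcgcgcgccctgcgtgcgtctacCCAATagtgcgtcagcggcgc
Ccnb2 differed by -1.04 between 24 h and 4 h and passed, as Ube2c did. The shares describe letters in the promoters and say nothing about binding.

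**Figure D4:**
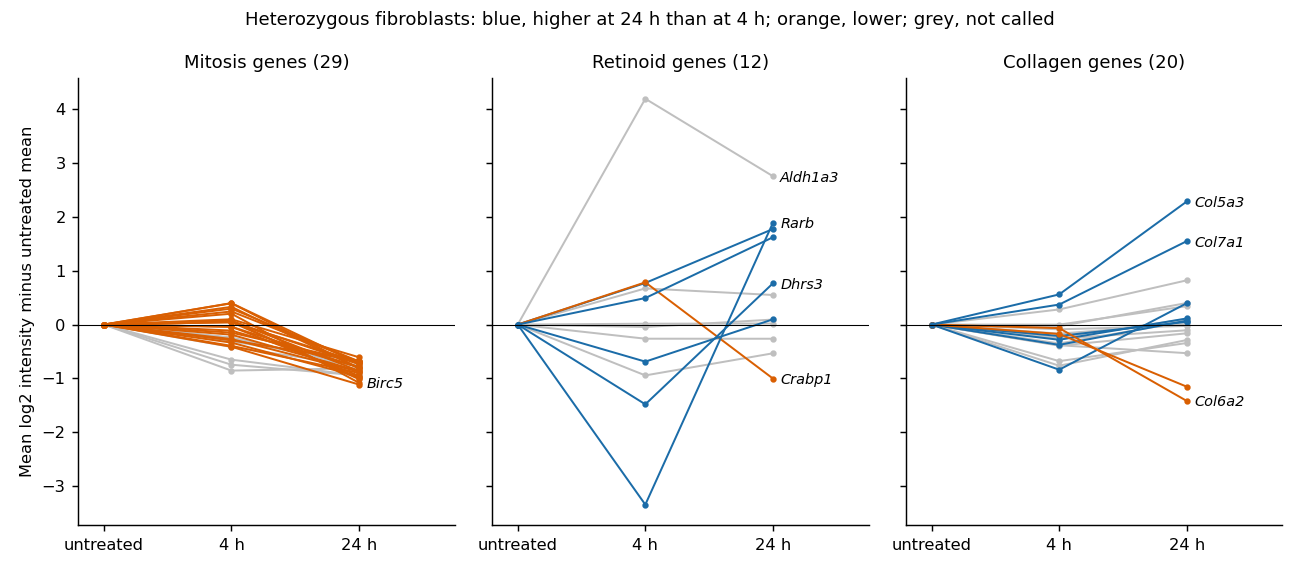
Mean log2 intensity minus the untreated mean in heterozygous cells for the mitosis, retinoid and collagen lists, a line for each gene at untreated, 4 h and 24 h. Orange lines are lower and blue lines higher at 24 h than at 4 h, with 22 of 29 mitosis genes lower, 5 of 12 retinoid genes higher and 1 lower, and 6 of 20 collagens higher and 2 lower.

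Beside Rarb, the retinoid list of 12 held 4 further rises and 1 fall, with a median of 0.27. Dhrs3, a retinaldehyde reductase, read 9.64 and 9.79 untreated, 8.25 and 8.23 at 4 h, and 10.61 and 10.35 at 24 h, and rose by 2.24 ± 0.19 (limma adjusted p = 1.8e-05). Like Rarb, it was lowest at 4 h and highest at 24 h. Crabp2, a carrier of retinoic acid to its receptors, read 10.38 and 9.80, then 10.88 and 10.29, and then 12.12 and 11.31, a rise of 1.13 ± 0.26 (adjusted p = 0.00654; 0.0692 without 4 h array 2 and 0.0798 without 24 h array 1). Crabp1, the other cellular retinoic acid binding protein, read 9.51 and 9.67 untreated, 10.46 and 10.29 at 4 h, and 8.49 and 8.69 at 24 h, and fell by 1.78 ± 0.21 (limma adjusted p = 0.000122). The retinoic acid synthesising enzyme Aldh1a2 rose by 1.0 ± 0.26 (adjusted p = 0.0116). Aldh1a3, another such enzyme, read 7.17 and 6.63, then 11.35 and 10.83, and then 10.16 and 9.15, a difference of -1.44 ± 0.64 that did not pass (limma adjusted p = 0.104). Aldh1a2 and Aldh1a3 were named after their values were seen. The 5 rises of the list became 3 without 4 h array 2 or 24 h array 1, and Rarb and Dhrs3 passed in every such fit.

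Patterning genes of other pathways moved both ways, beside 14.9% higher and 17.3% lower over all genes. Of 19 Wnt and R-spondin genes 7 rose and 3 fell, of 18 limb and mesenchyme transcription factors 7 rose and 2 fell, and of 8 hedgehog genes 2 rose (Gas1 and Gli2) and 0 fell. Fzd1, a Wnt receptor, read 10.91 and 10.79 untreated, 9.64 and 9.52 at 4 h, and 11.03 and 10.69 at 24 h, and rose by 1.28 ± 0.16 (limma adjusted p = 0.000166). Gli2, the hedgehog transcription factor, read 9.20 and 8.90, then 7.22 and 6.90, and then 8.36 and 8.63, a rise of 1.44 ± 0.22 (adjusted p = 0.000533). Meis2, a homeobox factor of the proximal limb, read 9.58 and 9.39, then 7.88 and 8.13, and then 9.17 and 9.0 (1.08 ± 0.16, adjusted p = 0.000508). All 3 were lowest at 4 h, and at 24 h Fzd1 had regained the untreated level. Wnt2 was measurable only at 4 h (7.30 and 7.0) and fell at least 4.43-fold (limma adjusted p = 0.00236). Prrx2, a homeobox gene of mesenchyme, read 10.44 and 9.96 untreated, 10.85 and 10.39 at 4 h, and 8.71 and 8.78 at 24 h, and fell by 1.87 ± 0.35 (adjusted p = 0.00198). Among 6 transcription factors of epithelial-mesenchymal transition 2 rose, Zeb2 by 1.05 ± 0.22 and Snai2 by 0.83 ± 0.14 (limma adjusted p = 0.00353 and 0.000795), and Snai1 was the 1 that fell. The 7 rises of limb genes became 4 without 24 h array 1, and the 3 falls of Wnt genes became 1 without 4 h array 1 or 24 h array 2, and also 1 with no filter on low values or a mean log2 of at least 6.

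Of 23 antioxidant and detoxification genes, 12 fell and 2 rose (median -0.37), and 10 or 11 fell with any 1 of the 4 arrays left out. Nqo1, a quinone reductase, read 7.77 and 7.20 untreated, 8.23 and 7.57 at 4 h, and 5.68 and 6.38 at 24 h, and fell by 1.86 ± 0.30 (limma adjusted p = 0.000796). Gstm1, a glutathione transferase, read 7.37 and 7.38, then 7.38 and 7.66, and then 6.21 and 6.06, a fall of 1.39 ± 0.22 (adjusted p = 0.000733). Cbr2, a carbonyl reductase, read 5.68 and 6.12, then 6.12 and 6.45, and was dim on both 24 h arrays, at least 2.43-fold lower (adjusted p = 0.000258). In each of these genes the untreated and the 4 h arrays stood together above the 24 h arrays. Adipogenic and fatty acid genes fell in 5 and rose in 3 of 16 cases, beside 17.3% lower and 14.9% higher over all genes tested. Lpl, lipoprotein lipase, read 7.78 and 7.62, then 7.23 and 7.32, and then 5.59 and 5.77 (-1.60 ± 0.16, limma adjusted p = 4.01e-05). Fabp4, a fatty acid carrier, read 8.41 and 8.98, then 8.27 and 8.63, and then 6.19 and 6.85 (-1.93 ± 0.39, adjusted p = 0.00311). Scd2, a fatty acid desaturase, rose by 0.75 ± 0.16 (adjusted p = 0.00362). The 5 adipogenic falls became 3 without 4 h array 1, 24 h array 1 or 24 h array 2.

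Of 22 ATF4 stress and amino acid synthesis genes, 7 rose and 0 fell (median 0.41). Trib3, a pseudokinase of this response, read 10.15 and 9.65 untreated, 9.07 and 8.75 at 4 h, and 10.29 and 10.10 at 24 h, a rise of 1.29 ± 0.18 (limma adjusted p = 0.000306) to the untreated level. Nupr1, a stress-induced nuclear protein, read 13.52 and 13.62, then 13.67 and 13.49, and then 14.46 and 14.63, and rose by 0.96 ± 0.13 (adjusted p = 0.000296) above it. The 7 rises became 3 without 24 h array 1, 12 with quantile normalization and 13 with array weights. The counts of further lists follow. In endoplasmic reticulum genes 5 of 18 fell and 0 rose, in ribosome biogenesis 5 of 18 and 0, in glycolysis and hypoxia 5 of 16 and 1, and in cholesterol synthesis 4 of 22 and 1, against 17.3% lower and 14.9% higher over all genes. Sdf2l1, a chaperone cofactor, fell by 0.97 ± 0.14, Rrp9, a nucleolar RNA processing factor, by 0.92 ± 0.15, and Slc2a1, the glucose transporter, by 0.76 ± 0.10 (limma adjusted p = 0.000321, 0.000852 and 0.000195). The mevalonate kinase gene Mvk read 7.17 and 7.39, then 7.82 and 8.12, and then 7.15 and 6.94, and fell by 0.92 ± 0.18 (adjusted p = 0.00282). The 4 cholesterol falls became 2 without 4 h array 2 or 24 h array 1. Of 12 circadian clock genes 3 rose (1 with the mean of probe sets) and 1 fell.

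Among 19 chemokine and inflammatory genes there were 6 falls and 0 rises (median -0.30). Ccl20, a chemokine, read 8.61 and 8.15 untreated, 10.29 and 10.30 at 4 h, and 8.15 and 8.56 at 24 h, and fell by 1.93 ± 0.27 (limma adjusted p = 0.000324). Ptx3, a pentraxin of innate immunity, read 10.89 and 11.01, then 7.85 and 7.78, and then 7.02 and 7.05, a fall of 0.78 ± 0.22 (adjusted p = 0.0171) that was lost with any 1 of the 4 arrays left out (adjusted p 0.0584 to 0.082). Its larger difference lay between untreated cells and 4 h. Interferon-stimulated genes fell in 4 and rose in 2 of 20 cases, beside 17.3% lower and 14.9% higher over all genes tested. Their median was -0.60, and some had large SEs, which pool the spread over all 9 groups. Gbp2, an interferon-induced GTPase, read 8.75 and 8.15 untreated, 8.76 and 8.31 at 4 h, and 6.13 and 5.76 at 24 h, and fell by 2.59 ± 0.34 (limma adjusted p = 0.000217). Bst2, the antiviral tetherin, read 11.74 and 11.25, then 12.19 and 11.84, and then 9.35 and 9.23 (-2.72 ± 0.78, limma adjusted p = 0.0179). Usp18, a protease of the interferon response, read 9.95 and 8.71, then 8.31 and 8.27, and then 5.64 and 3.14 (-3.90 ± 1.33, limma adjusted p = 0.0397). The size of the Usp18 fall is uncertain, since 1 of the 24 h arrays was dim. Usp18 was not called with no filter on low values (limma adjusted p = 0.0845), nor in other settings that kept all arrays (0.0522 and 0.0601). With 1 of the 4 arrays left out Bst2 did not pass in any fit (adjusted p 0.0577 to 0.0905), and Usp18 did not without 4 h array 1, 4 h array 2 or 24 h array 2 (adjusted p = 0.128, 0.12 and 0.263). The 6 inflammatory falls became 3 without either 4 h array, and the 4 interferon falls became 1 without 4 h array 1, 4 h array 2 or 24 h array 2 and 2 without 24 h array 1. In the other direction, 9 interferon genes were lower with array weights and 10 in a fit of the 4 arrays alone. Of the 16 macrophage markers, whose summed level was lower at 24 h, 1 fell (Cd68, by 1.97 ± 0.46, limma adjusted p = 0.00617) and 0 rose, with a median of -0.62. Cd68 was lost without 4 h array 1 or 24 h array 2 (adjusted p = 0.0514 and 0.0742), which left 0 lower, while 4 were lower in a fit of the 4 arrays alone. The part of these markers in the results was not tested. In bulk RNA, fewer cells of a type and less RNA per cell cannot be told apart.

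Each heterozygous time was also set against untreated heterozygous cells. These comparisons share arrays with that of 24 h against 4 h, so only their own counts are given. At 4 h 2904 of 10078 genes (28.8%) differed from untreated cells, and at 24 h 712 (7.06%) did. Of these, 1578 were higher and 1326 lower at 4 h, and 297 higher and 415 lower at 24 h. The list counts that follow are to be read beside these counts over all genes tested. At 4 h 17 of the 26 immediate early genes were higher and 2 lower, and at 24 h 1 was higher and 7 lower. For growth factors the counts were 14 higher and 1 lower at 4 h, and 9 and 3 at 24 h. Collagens gave 0 higher and 4 lower at 4 h, and 2 and 2 at 24 h. TGFb/Smad targets gave 13 higher and 2 lower at 4 h, and 6 and 0 at 24 h. The count of 2904 was 1664 and 1554 without untreated array 1 or 2 and 1825 without 4 h array 1. The count of 712 was 341 and 311 without untreated array 1 or 2, 303 and 443 without 24 h array 1 or 2, and 1587 with array weights.

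The same comparison in wt and homozygous cells used other arrays. There 3456 genes (34.3%) and 3722 genes (36.9%) differed between 24 h and 4 h. The wt count was 1958 without 4 h array 2, 1980 without 24 h array 2, 1544 with array weights and 0 in a fit of the 4 wt arrays alone. The homozygous count was 2054 and 2422 without 4 h array 1 or 2, 2187 and 2101 without 24 h array 1 or 2, and 5723 with array weights. The 1502 genes higher at 24 h in heterozygous cells included 1014 that were higher in wt cells (67.5% of the heterozygous and 66.8% of the wt list) and 1202 higher in homozygous cells (80.0% and 79.8%). Of the 1740 lower genes, 1285 were lower in wt cells (73.9% and 66.3%) and 1587 in homozygous cells (91.2% and 71.6%). No gene was called in opposite directions (0 in each comparison). All 3 genotypes called 2157 genes in the same direction, 66.5% of the heterozygous calls, and 311 (9.6%) were called in heterozygous cells alone, which does not show that they differed from the other genotypes. Over all genes tested the fold changes correlated at r = 0.878 with wt and 0.94 with homozygous cells, a description across genes that share arrays within each genotype.

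**Figure D5:**
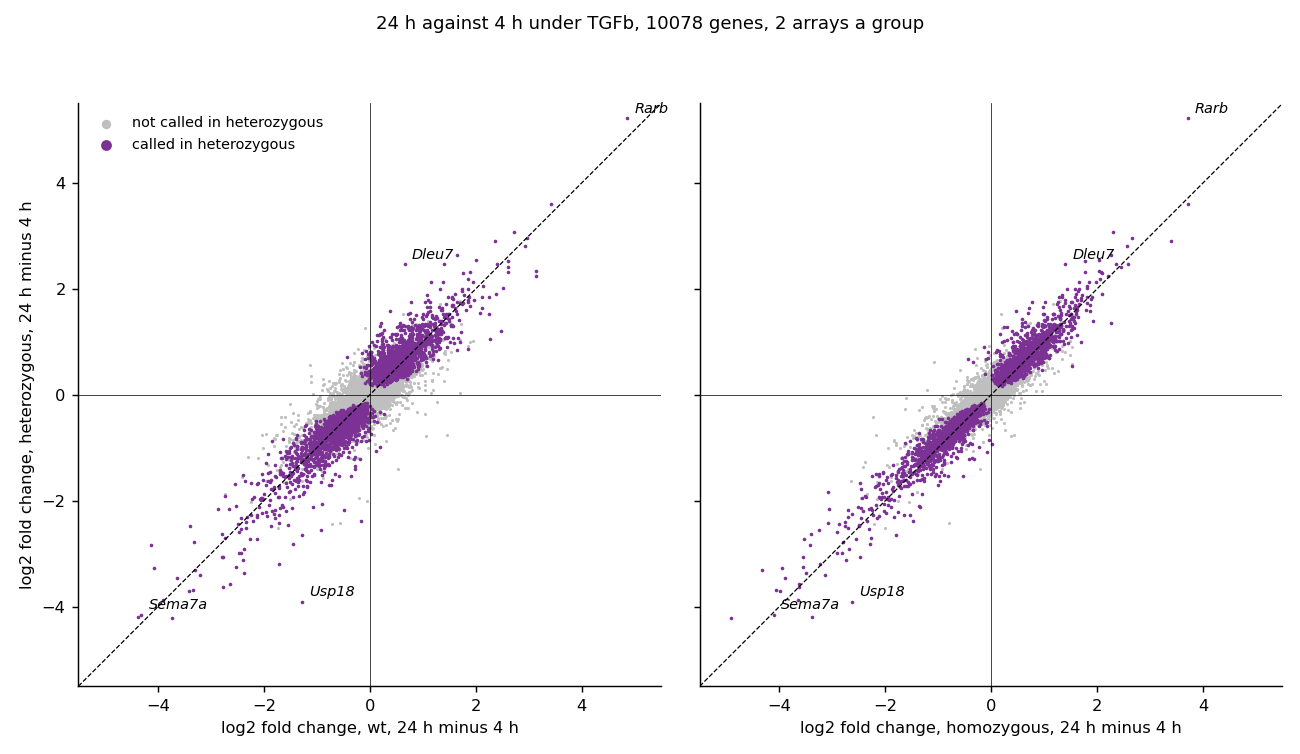
Log2 fold change from 4 h to 24 h of TGFb in heterozygous cells (vertical) against wt (left) and homozygous cells (right), a point for each of 10078 genes and purple where called in heterozygous cells. The points follow the dashed line of equal change (r = 0.878 and 0.94), and genes that are dim in a group, such as Rarb at 4 h, are drawn at their fitted value, which is no measured size.

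Tests of the difference itself, as an interaction of time and genotype, called 0 of 10078 genes between heterozygous and wt cells (0%) and 0 between heterozygous and homozygous cells (0%) with limma. At an unadjusted p under 0.05 there were 416 and 97 genes, and the smallest adjusted p-values were 0.968 and 0.9997. The standard error of such a difference had a median of 0.22 log2 units, and as the next values show, differences several times that size did not pass the adjusted threshold. The lead for wt was Mapre2, a microtubule end binding protein, at 10.65 and 10.53 at 4 h and 11.14 and 11.47 at 24 h in heterozygous cells. In wt cells Mapre2 read 11.07 and 11.35 at 4 h and 10.86 and 10.70 at 24 h, which made the difference in change 1.15 ± 0.23 (limma adjusted p = 0.968), and its other probe sets moved by -0.09 to 0.24 in heterozygous cells. For homozygous cells the leads included Rarb, whose change was larger by 1.52 ± 0.36 in heterozygous cells (limma adjusted p = 1), with homozygous arrays at 3.33 and 4.05 at 4 h and 7.39 and 7.40 at 24 h. All 4 h arrays of both genotypes were dim for Rarb, so the size of that difference is not measurable. Without wt 4 h array 1 the interaction with wt called 137 genes, Mapre2 (adjusted p = 0.0388) and Ice2 (0.0431) among them. The wt arrays of a group differed more from each other than the heterozygous ones did, as given above. By list, the immediate early genes had medians of -1.14 in wt and -1.21 in homozygous cells with 22 and 23 of 26 lower, and the mitosis genes -0.60 and -0.74 with 20 and 25 of 29 lower. Over all 10078 genes tested the medians were -0.043 in wt and -0.068 in homozygous cells, with 1939 and 2216 genes lower.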

How the data were processed

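Values are GCRMA intensities on a linear scale, deposited by the authors, with GCRMA named per the submitters' processing notes and its version not given in the sources used here. GCRMA models probe background and normalizes between arrays, which makes low values uncertain. Of 45101 probe sets, 64 are controls, 34945 carry 1 gene symbol, 932 several and 9160 none in GEO's platform annotation; 34741 symbols matched RefSeq. Intensities were taken to log2, kept at log2 5 or more in at least 2 of 18 arrays, and reduced to the brightest probe set of each of 10078 genes. All 18 arrays, with a mean for each of 9 groups (9 residual degrees of freedom), were fitted with limma 3.58.1 in R 4.3.3 (lmFit, eBayes with trend, Benjamini-Hochberg, calls at 0.05, two-sided). With 2 arrays a group, their number limits the precision. The fit was tested on simulated data for heterozygous 24 h against 4 h over 10078 genes. It recovered 41.8% of 67 changes of 1.5-fold, 73.1% of 67 of 2-fold and 95.5% of 66 of 4-fold, with 8 false calls. Far fewer genes changed there than the 32.2% called in the data, and the adjusted threshold depends on that share. The rates therefore do not give the recovery in this comparison. A gene dim on both arrays of a group is given as at least N-fold, the brighter group's mean against log2 5. Genes were named mainly from a set made by rule. It held the 12 largest rises and 12 largest falls among called genes whose arrays do not overlap, and the 4 largest called changes of each list. It also held fixed key genes and the 5 leads each of the interactions. Not all of this set is named in the text. Some genes left out, such as Oas1a and Gins1, lost their call with 1 array left out. The members and the 40 lists (623 of 765 genes measured) were chosen with earlier results of these data known. Promoters are RefSeq's, GRCm38.p6. Alternatives tried were other filters, scalings, probe set means, an offset of 16, array weights, replicate blocks and each array left out.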

Additional observations from a re-analysis of the deposited data

How the results depend on the processing

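With 1 of the 4 arrays left out, the count of genes differing between 24 h and 4 h in heterozygous cells ranged from 1863 to 2145 (rises 890 to 1108, falls 946 to 1127), and other settings kept it within 1.5 times of 3242. In wt cells it was 1544 with array weights, 0 in a fit of the 4 wt arrays alone and 1958 to 4172 with 1 array left out, and in homozygous cells 5723 and 2054 to 2422. Against untreated heterozygous cells the counts were 1554 to 2082 at 4 h and 303 to 443 at 24 h with 1 array left out, and 1587 at 24 h with array weights. The interactions called 3 and 3 genes with no filter on low values, and 0 to 137 (wt) and 0 to 0 (homozygous) with 1 array left out. The sign turned for Tgfbr1 with the mean of its probe sets (0.120), for Smad7 with quantile normalization (0.026), equal array medians (0.039) and with 1 array left out (-0.127 to 0.084), and for Ccn2 with equal array medians (0.059) and with 1 array left out (-0.013 to 0.009). The cause was not tested. Of 144 genes of the set from which genes were named, 21 lost their call in a setting that kept all arrays, and more did with 1 array left out. Same-numbered heterozygous arrays deviated together (correlations 0.376 to 0.453), but each group has 2 numbers and the labels do not say that they pair. With the replicate number as a block the count was 3212 over all groups and 3333 within each genotype, the second chosen after seeing the data. The block within each genotype also moved the cholesterol falls to 8 and, as did the block over all groups, the receptor and Smad rises to 1. Genes under log2 5 have only a bound.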
